A study of Mus musculus with 6 samples.

Results

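Autophagy delivers cytoplasm, aggregates and organelles to lysosomes inside a double membrane, and 38 mouse genes of its core machinery and cargo receptors were followed here in RAW 264.7 cells, a mouse macrophage line that forms osteoclasts when driven to differentiate. The 38 genes were taken by symbol from a list of initiation kinases, lipid kinases, membrane and lipid-transfer proteins, conjugation enzymes, ATG8 proteins and receptors, and all 38 were found among the 23282 gene entries and could be tested. The comparison was made at day 5 of osteoclast differentiation, between 3 libraries labelled control and 3 labelled CPN, in a study titled for a 60 kDa chaperonin, a protein class that helps other proteins fold. All 6 libraries came from the same line, and the labels name neither the agent that drove differentiation nor the source, dose or timing of the chaperonin. The question was which of these genes differed between CPN and control cells.

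Autophagy starts when the ULK kinase complex activates a lipid kinase complex built around PIK3C3, after which ATG9, ATG2 and VMP1 supply membrane and WIPI proteins read the lipid signal. The ATG12 and ATG8 conjugation systems then attach LC3 and GABARAP proteins to the growing membrane, where receptors such as p62 dock their cargo. In osteoclasts part of this machinery is known to act at the ruffled border, the folded membrane through which acid and proteases are secreted onto bone.

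Library totals lay between 7957228 and 9713938 counts, and between 10.6% and 18.8% of the entries seen in any library were at 0 in a given one, with the lowest shares in CPN 1 and control 3. Of 9 macrophage markers in the tables, 8 had more than 3 counts in each library, while Mertk was at 0 in all 6. By edgeR, 3 of these markers were higher in CPN, Fcgr1 (7.07 ± 9.004 to 98.6 ± 29.3 CPM), Itgam (60.7 ± 6.34 to 239 ± 58.0 CPM) and Adgre1 (32.7 ± 10.8 to 113 ± 13.5 CPM), and Spi1 was lower (297 ± 23.4 to 197 ± 26.7 CPM). Summed osteoclast markers ranged from 3915 to 4079 CPM (the count relative to the library size as scaled by TMM) in control and from 1080 to 1682 CPM in CPN, with 7 markers lower and Mmp9 higher. T cell, B cell, epithelial and endothelial markers summed to at most 3.96 CPM in any library. Granulocyte markers summed to at most 0.117 CPM in control and to between 17.99 and 34.6 CPM in CPN, which came almost wholly from S100a8, while Elane and Camp were at 0 in all 6 libraries. Stromal markers reached 6.23 CPM in control and 12.2 to 20.4 CPM in CPN, and osteoblast markers 3.11 and 7.32 CPM. These marker differences move with the treatment, and their part in the values below was not tested. In bulk RNA, fewer cells of a type and less RNA per cell cannot be told apart. The labels do not say that the libraries came from separate cultures, and the p-values reflect no more than the spread among these 6 libraries, which may be technical.

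Of the 38 autophagy genes, 3 rose in CPN, 1 fell and 34 did not pass edgeR's quasi-likelihood test at an adjusted p of 0.05. The risers were Sqstm1, the gene of the cargo receptor p62, Vmp1, an endoplasmic reticulum protein needed to form autophagosomes, and Atg13, the scaffold of the ULK complex. The gene that fell was Bnip3, a receptor that marks mitochondria for autophagy. The 4 calls make up 10.5% of the genes, against 14.0% of all 11092 genes tested. By direction, 7.89% were higher against a background of 7.62%, and 2.63% were lower against 6.39%. These shares are near or below the background, so the number of calls is no result about autophagy genes as a class. Over all genes the calls were 845 higher and 709 lower, or 690 and 914 when libraries were scaled by their totals alone, a scaling that put the median gene at -0.13 log2 units, the median of the 38 at -0.10, and kept all 4 calls. An unadjusted p below 0.05 was reached by 10 genes, or 26.3%, and the same 26.3% was found over all genes tested. The median log2 fold change was 0.02 over the 38 genes and -0.01 over all genes, and 26 of the 38 (68.4%) lay within 0.5 log2 units of 0, against 56.7% of all genes.

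The 95% interval of the fold change excluded a 2-fold change in either direction for 19 of the 38 genes, against 38.6% of all genes tested, and all 19 were among the 34 that did not pass. For these genes the data bound the difference rather than leave it undetermined. Tax1bp1, a ubiquitin-binding receptor, had the smallest standard error, with a log2 fold change of 0.01 and an interval from -0.36 to 0.37. For the remaining 15 genes that did not pass, the interval reached beyond 2-fold on at least one side. The widest belonged to Optn, a receptor with 77 counts in all 6 libraries, whose interval ran from -2.05 to 4.99.

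**Figure D1:**
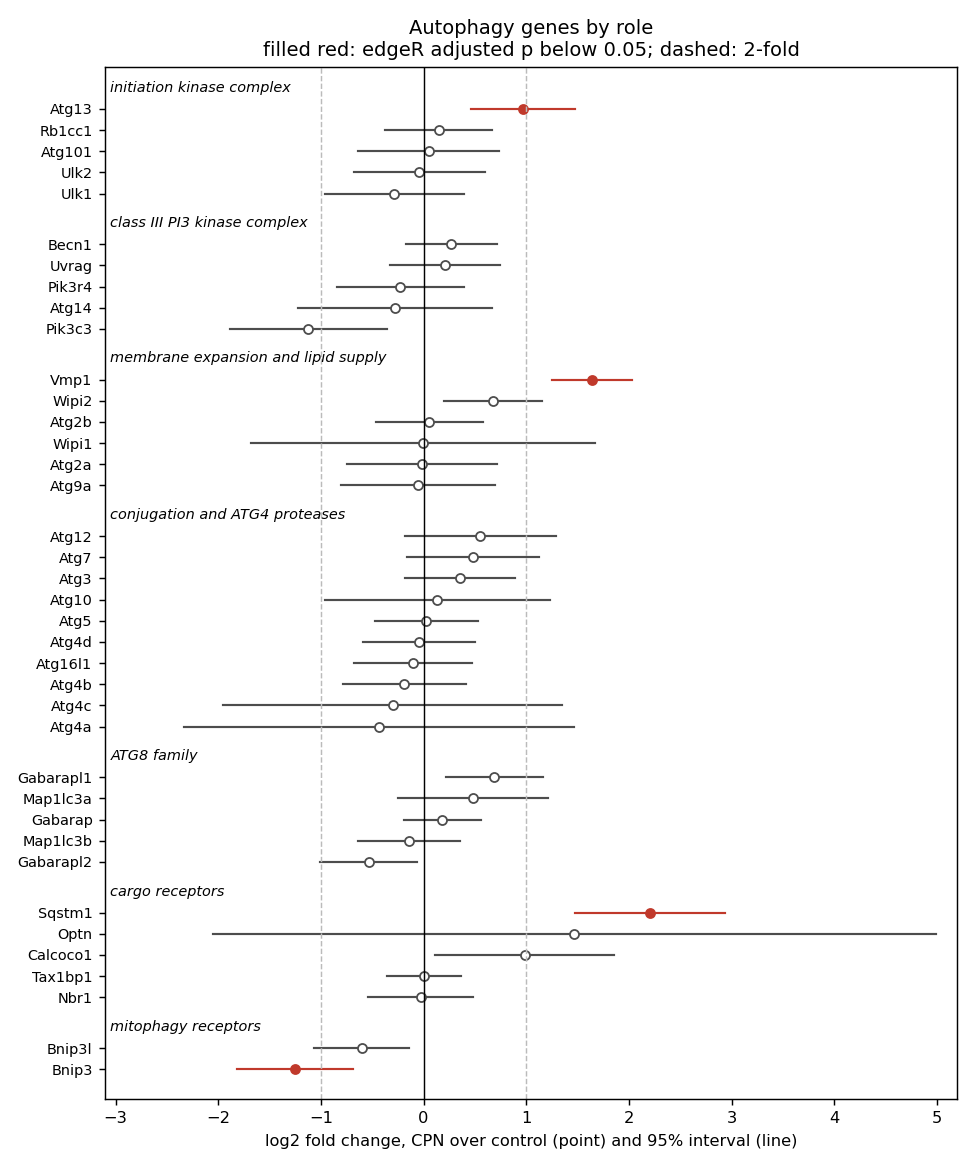
Log2 fold change of each of the 38 autophagy genes in CPN over control (points) with its 95% interval (lines), grouped by role, where filled red points had an edgeR adjusted p below 0.05. Sqstm1, Vmp1 and Atg13 lie to the right and Bnip3 to the left, and the 34 open points include 26 within 0.5 log2 units of 0.

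Control 2 was the highest of the 3 control libraries for 25 of the 38 genes. The genes' median log2 difference from the control mean was 0.17 there, against -0.15 in control 1 and -0.07 in control 3. The matching values over all genes were not computed, so these cannot be read as particular to autophagy genes. Without control 2, 6 genes were higher and 2 were lower, and the further calls were Atg7, Atg12, Calcoco1 and Bnip3l. Without control 1 the calls were 2 higher and 2 lower, with Pik3c3 gained and Atg13 lost. DESeq2 on all 6 libraries gave 5 higher and 2 lower, adding Gabarapl1, Wipi2 and Pik3c3. Calls over all genes moved as well, from 1554 to 1954 without control 2, to 995 without control 1 and to 1955 with DESeq2.

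**Figure D2:**
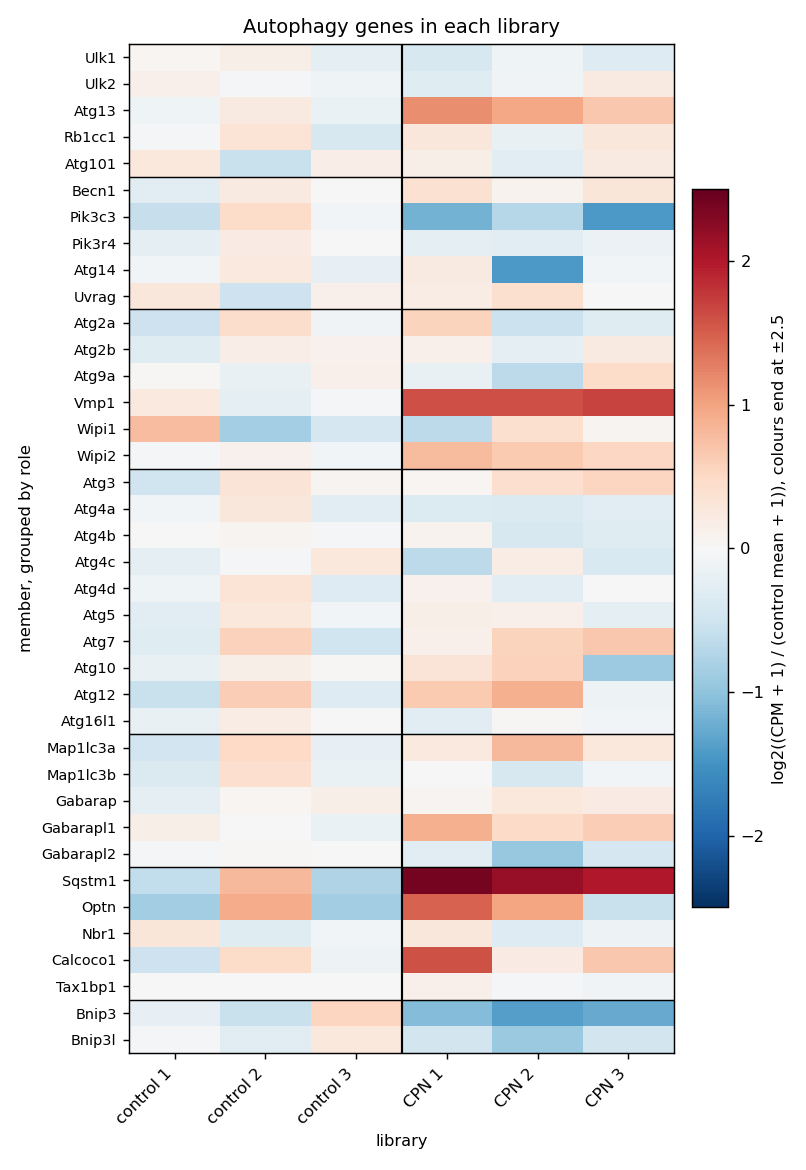
Each row is a gene and each column a library, coloured by the log2 ratio of its CPM plus 1 to the control mean plus 1. Sqstm1 and Vmp1 are red in all 3 CPN libraries and Bnip3 is blue in all 3, while many rows are warmer in control 2 than in the other 2 controls.

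Sqstm1 (chromosome 11, 50199366 to 50210827, minus strand, GRCm38) encodes p62, which binds ubiquitin chains on cargo and LC3 on the membrane, holds KEAP1, and is mutated in Paget disease of bone. Its levels were 384, 1039.5 and 353 CPM in control 1 to 3 and 3128, 2665 and 2380.3 CPM in CPN 1 to 3. Each CPN library was above each control library, and control 2 stood well above the other 2 controls. The mean went from 592 ± 388 to 2724 ± 377 CPM (SD, n = 3 per group), 4.60-fold, with a log2 fold change of 2.20 ± 0.34 by edgeR (SE, adjusted p = 0.000838). Without control 2 the log2 fold change was 2.90, and leaving out any other library gave between 1.94 and 2.29, with the call kept each time. The gene Mrnip on the opposite strand covers the 3′ end of Sqstm1, and its entry held 147 counts against 81204 for Sqstm1.

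The other 4 cargo receptors did not pass, which left Sqstm1 as the only call among 5. Nbr1, which shares the p62 domain plan, had 75.8 ± 16.4 CPM in control and 74.2 ± 16.7 CPM in CPN, and Tax1bp1 had 145 ± 1.29 and 145 ± 11.6 CPM. The count of Sqstm1 over that of Tax1bp1, a ratio that needs no scaling between libraries, was 2.63, 7.24 and 2.45 in control and 19.8, 18.9 and 17.5 in CPN. Calcoco1, a receptor for the endoplasmic reticulum and Golgi, had 11.3, 23.2 and 15.2 CPM in control against 52.1, 19.1 and 27.0 CPM in CPN. Its groups overlapped, and its edgeR adjusted p of 0.134 was 0.0370 without control 2. Optn had 0, 2.52 and 0 CPM in control and 4.08, 2.62 and 0.248 CPM in CPN, too few counts to separate the groups.

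Vmp1 (chromosome 11, 86583865 to 86683836, minus strand) encodes a lipid scramblase of the endoplasmic reticulum that acts where autophagosomes form. It had 129, 91.3 and 106 CPM in control and 333, 333 and 355 CPM in CPN. The 3 CPN libraries lay close together and far above the controls. The 3.12-fold difference, 1.64 ± 0.18 on the log2 scale (SE), had an edgeR adjusted p of 6.79e-05, and the log2 value stayed between 1.55 and 1.79 with any library left out. The annotated microRNA gene Mir21a lies inside Vmp1 on the same strand, at 86584067 to 86584158, close to the annotated 3′ end of Vmp1 at 86583865. The count tables have no row for Mir21a, so reads of a transcript from it may be counted for Vmp1, which was not tested.

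The other genes of membrane supply did not pass. Wipi2, which recruits the conjugation machinery to the lipid signal, came closest, with 32.9, 36.1 and 31.8 CPM in control and 58.4, 53.7 and 48.5 CPM in CPN. Its groups did not overlap, and the difference of 0.67 ± 0.22 log2 units (SE) had an edgeR adjusted p of 0.0609. Atg2a and Atg2b, lipid-transfer proteins, and Atg9a, the membrane protein of the seed vesicles, had log2 fold changes of -0.01, 0.06 and -0.05. The annotated transcript Gm29253 covers the 3′ end of Atg9a on the same strand, and the count tables have no entry for it. Wipi1, with 247 counts in all, gave -0.01 ± 0.77.

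Atg13 (chromosome 2, 91674618 to 91710576, minus strand) links the ULK kinases to their partners. Its levels were 30.9, 39.2 and 29.7 CPM in control and 75.8, 65.6 and 53.6 CPM in CPN, with no overlap. The 1.96-fold difference, 0.97 ± 0.23 on the log2 scale (SE), had an edgeR adjusted p of 0.0148. This call ended without control 1, control 3, CPN 1 or CPN 2, at edgeR adjusted p of 0.0593, 0.0801, 0.0714 and 0.0518, with log2 fold changes between 0.84 and 0.97. The other 4 members of the complex did not pass. Ulk1 and Ulk2, its kinases, had log2 fold changes of -0.29 ± 0.31 and -0.04 ± 0.29, Rb1cc1, the scaffold FIP200, 0.15 ± 0.24, and Atg101, the partner that stabilises ATG13, 0.05 ± 0.32.

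None of the 5 genes of the class III lipid kinase passed edgeR's test (smallest adjusted p = 0.0533), and Pik3c3 alone had an unadjusted p below 0.05. Pik3c3, the catalytic subunit VPS34, had 20.9, 43.7 and 30.04 CPM in control and 13.4, 19.0 and 11.04 CPM in CPN. The CPN libraries were below all controls, by a log2 fold change of -1.12 ± 0.36 (SE). The edgeR adjusted p of Pik3c3 was 0.0326 without control 1 and 0.177 without control 2. On all 6 libraries it was called by DESeq2, and by edgeR with library totals alone or with no low-count filter. Its regulatory partner Pik3r4 had 24.8 ± 3.87 and 21.2 ± 0.907 CPM, and Becn1, the scaffold Beclin 1, had 80.0 ± 14.0 and 96.5 ± 10.3 CPM. Cntd1, on the opposite strand, covers the 3′ end of Becn1 and had 3756 counts against 4470, and reads of the shared stretch may be counted for either gene. Atg14 and Uvrag, which direct the kinase to autophagosomes and endosomes, had log2 fold changes of -0.28 ± 0.44 and 0.20 ± 0.25.

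The 10 genes of the conjugation systems gave no call in either direction in edgeR (smallest adjusted p = 0.344), none had an unadjusted p below 0.05, and DESeq2 called none. Their log2 fold changes ran from -0.44 for Atg4a to 0.55 for Atg12. Atg12, the ubiquitin-like protein joined to ATG5, had 25.7, 59.2 and 30.5 CPM in control and 61.4, 72.3 and 35.4 CPM in CPN, with control 2 inside the CPN range. Atg7, the activating enzyme of both conjugation systems, had 33.1, 61.5 and 28.9 CPM in control and 45.1, 61.2 and 65.9 CPM in CPN, again with control 2 high. Without control 2, Atg12 and Atg7 had log2 fold changes of 1.02 and 0.91 (edgeR adjusted p = 0.0313 and 0.0269). Atg5 had 52.4 ± 10.1 and 53.4 ± 7.66 CPM, and Atg16l1, which places the ATG12 and ATG5 conjugate on the membrane, 29.5 ± 4.04 and 27.4 ± 3.10 CPM. Atg3, the enzyme that joins LC3 to lipid, had 56.2 ± 15.6 and 71.7 ± 12.4 CPM, and Atg10, the matching enzyme for ATG12, 9.53 ± 1.22 and 10.5 ± 5.24 CPM. Among the proteases that trim ATG8 proteins, Atg4b and Atg4d had log2 fold changes of -0.19 ± 0.28 and -0.04 ± 0.25, while Atg4a and Atg4c, with 141 and 208 counts, had standard errors of 0.88 and 0.76. Kri1 on the opposite strand covers the 3′ end of Atg4d.

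In the ATG8 family, whose proteins coat the autophagosome, none of 5 genes passed edgeR's test (2 with an unadjusted p below 0.05, 1 called by DESeq2), and 2 close relatives had fold changes of opposite sign. Gabarapl1 had 46.1, 42.2 and 36.8 CPM in control and 78.2, 58.8 and 64.8 CPM in CPN. It was 0.69 ± 0.22 log2 units higher (SE), at an edgeR adjusted p of 0.0525. With DESeq2-type size factors, or a stricter low-count filter of at least 30 counts in at least 3 libraries, edgeR did call Gabarapl1. Gabarapl2 had 82.1, 86.1 and 85.3 CPM in control and 68.9, 43.5 and 62.9 CPM in CPN, a difference of -0.53 ± 0.22 log2 units (SE) at an edgeR adjusted p of 0.137. Neither gene's groups overlapped. The count of Gabarapl1 over that of Gabarapl2 was 0.562, 0.490 and 0.432 in control and 1.14, 1.35 and 1.03 in CPN. The mean ratio was 0.494 ± 0.0651 in control and 1.17 ± 0.165 in CPN (SD, n = 3), a 2.37-fold difference that does not depend on scaling. This pair was chosen after its values were seen, so the ratio was given no test.

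The remaining ATG8 genes overlapped between groups. Map1lc3b, the gene of the LC3B protein used as the usual autophagosome marker, had 118 ± 34.98 CPM in control and 107 ± 15.9 CPM in CPN, with an interval from -0.63 to 0.35 on the log2 scale. Its 3′ end is covered by Zcchc14 on the opposite strand and by the annotated gene Gm20388 on the same strand, so its reads may be shared. Map1lc3a had 20.8 ± 8.04 and 29.1 ± 7.15 CPM, and Gabarap had 158 ± 21.3 and 179 ± 11.6 CPM with an interval from -0.19 to 0.56.

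**Figure D3:**
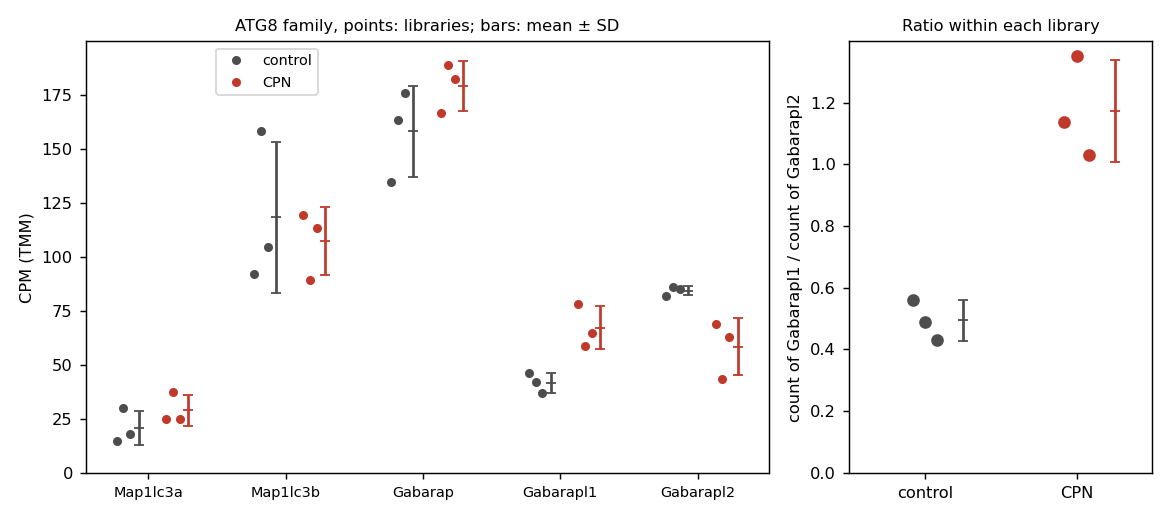
Left, CPM of the 5 ATG8 genes in each library (points) with mean and SD (bars), control in grey and CPN in red. Right, the count of Gabarapl1 divided by that of Gabarapl2 within each library, where the 3 CPN ratios (1.03 to 1.35) lie above the 3 control ratios (0.432 to 0.562).

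Bnip3 (chromosome 7, 138890836 to 138909519, minus strand) encodes an outer mitochondrial membrane protein that binds LC3 and is a textbook target of the hypoxia-inducible factor HIF1. Its levels were 137, 108 and 233 CPM in control and 74.6, 60.2 and 65.6 CPM in CPN. All CPN libraries were below all controls, and control 3 was the highest. The mean went from 159 ± 65.3 to 66.8 ± 7.27 CPM, 2.38-fold lower, which is -1.25 ± 0.26 log2 units (SE) at an edgeR adjusted p of 0.00648. With any library left out the edgeR adjusted p stayed below 0.05, reaching 0.049986 without CPN 2, and without control 3 the log2 fold change was -0.87. Without both control 3 and CPN 1 the edgeR adjusted p was 0.0909. The annotated antisense gene Gm45507 lies inside Bnip3 at 138890964 to 138894675, close to the annotated 3′ end of Bnip3 at 138890836. Gm45507 has no count entry, so its reads may be counted for Bnip3, which was not tested.

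Its relative Bnip3l, known for clearing mitochondria from maturing red cells, had 118, 102 and 147 CPM in control and 88.7, 64.3 and 88.8 CPM in CPN. The groups did not overlap, and the log2 fold change of -0.60 ± 0.21 (SE) had an edgeR adjusted p of 0.0814, which was 0.0293 without control 2. In all, 9 of the 38 genes (23.7%) had groups that did not overlap, against 32.6% of all genes tested. Of these, 5 (13.2%) were higher in each CPN library, against 16.9% of all genes, and 4 (10.5%) were lower, against 15.7%.

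**Figure D4:**
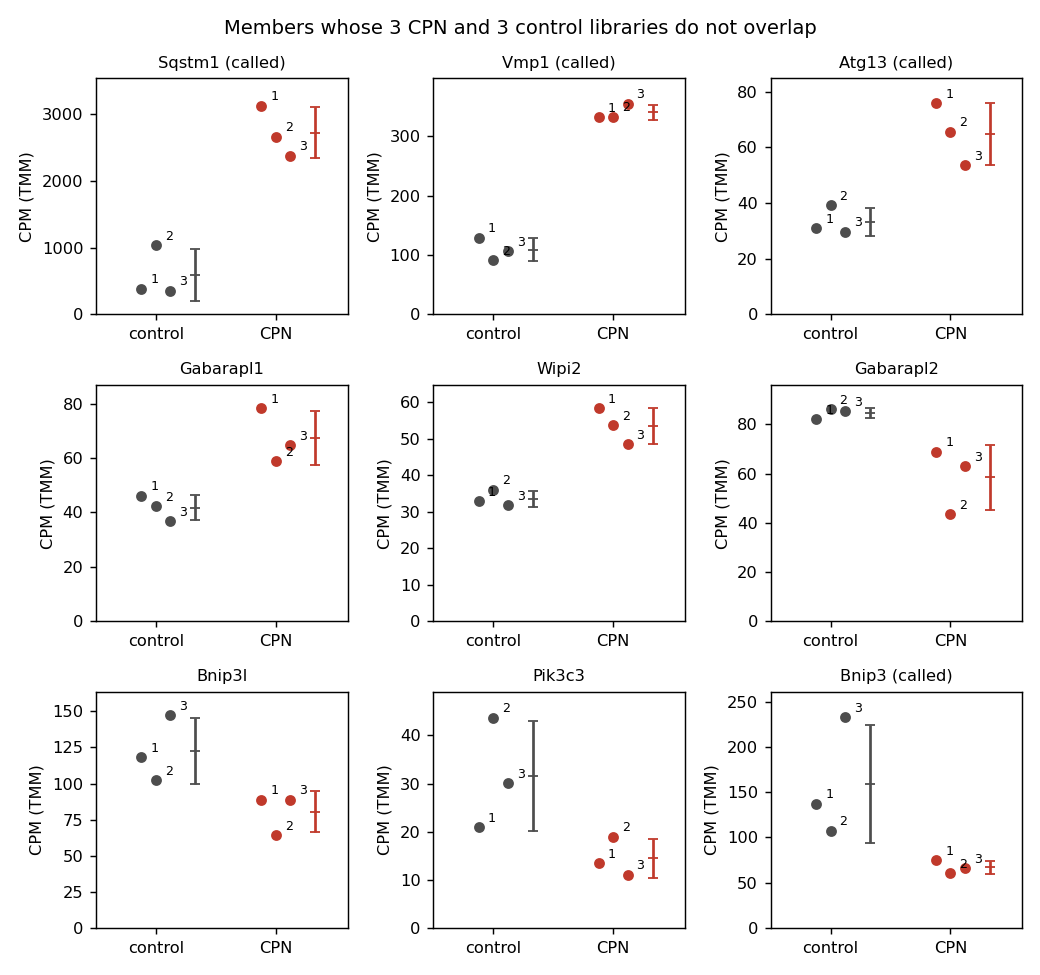
CPM in each library, numbered by replicate, with the mean and SD of each group, for the 9 genes whose 3 CPN and 3 control values do not overlap. Control 2 is the highest control for both Sqstm1, where it lies nearest to the CPN libraries, and Pik3c3, where it lies farthest from them, and control 3 is the highest library for Bnip3.

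The 250 bases before the annotated start of the 4 genes that passed are shown so that the promoters of the genes that moved can be read side by side. They are given 5′ to 3′ on the gene's own strand, from RefSeq on GRCm38.p6, at chr11:50210821-50211070 for Sqstm1, chr11:86683837-86684086 for the most upstream of 3 Vmp1 starts, chr2:91710593-91710842 for Atg13 and chr7:138909507-138909756 for Bnip3. Capitals mark matches, on either strand, to CACGTG (the E-box read by TFEB and MITF) and TGANNNNGC (the core of the antioxidant response element read by NRF2). They also mark ACGTG, a core read by HIF, which the E-box contains. Other forms of the HIF core were not searched for.
Sqstm1: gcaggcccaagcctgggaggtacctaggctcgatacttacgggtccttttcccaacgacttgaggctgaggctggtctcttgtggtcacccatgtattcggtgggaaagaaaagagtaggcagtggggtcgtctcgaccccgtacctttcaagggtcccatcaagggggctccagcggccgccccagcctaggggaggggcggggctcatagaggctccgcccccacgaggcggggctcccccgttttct
Vmp1: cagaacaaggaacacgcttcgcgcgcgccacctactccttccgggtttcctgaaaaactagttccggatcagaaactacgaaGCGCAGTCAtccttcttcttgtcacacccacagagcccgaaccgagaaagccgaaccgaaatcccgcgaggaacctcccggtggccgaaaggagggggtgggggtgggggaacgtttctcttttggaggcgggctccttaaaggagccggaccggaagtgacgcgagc
Atg13: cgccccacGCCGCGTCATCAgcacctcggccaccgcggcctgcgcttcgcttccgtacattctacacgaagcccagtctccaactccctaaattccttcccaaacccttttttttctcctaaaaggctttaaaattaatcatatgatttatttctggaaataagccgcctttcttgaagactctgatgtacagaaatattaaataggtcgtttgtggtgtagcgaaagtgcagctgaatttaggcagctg
Bnip3: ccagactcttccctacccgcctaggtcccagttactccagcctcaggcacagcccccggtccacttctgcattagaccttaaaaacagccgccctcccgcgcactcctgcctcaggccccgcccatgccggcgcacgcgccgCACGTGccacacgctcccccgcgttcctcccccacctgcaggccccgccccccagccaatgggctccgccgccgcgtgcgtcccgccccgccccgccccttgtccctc
Bnip3 held CACGTG from -108 to -103 relative to its start, a motif found in 6.02% of all 32851 windows of this length, and this match is also its match to ACGTG. Atg13 and this Vmp1 window held the antioxidant core, which 35.2% of all windows hold, and Sqstm1 held none of the 3 motifs. The 31 autophagy genes in the table had 37 windows, of which 4 (10.8%) held CACGTG, those of Atg3, Atg5, Atg7 and Bnip3. TGANNNNGC was found in 19 windows (51.4%) and ACGTG in 14 (37.8%, against 16.6% of all windows).

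Genes that control autophagy gave 2 lower and none higher of 23 tested in edgeR (3 higher at an unadjusted p below 0.05, 1 higher by DESeq2 and by limma-voom), with a median log2 fold change of 0.08. Over all genes tested 6.39% were lower and 7.62% higher, and 26.3% had an unadjusted p below 0.05 in either direction. Mitf, a relative of TFEB that drives lysosomal and osteoclast genes, fell from 236 ± 6.97 to 98.1 ± 8.65 CPM, 2.41-fold, at an edgeR adjusted p of 0.000278. Deptor, an inhibitor of the mTOR kinases, fell from 55.8 ± 10.1 to 26.3 ± 4.92 CPM, at an edgeR adjusted p of 0.0121, a call that ended without control 3, CPN 1 or CPN 2 (adjusted p up to 0.0762). Tfeb itself, with 251 counts in all, had 8.17 ± 4.42 CPM in control and 1.52 ± 1.56 CPM in CPN, with no overlap (edgeR adjusted p = 0.159). The lower genes at an unadjusted edgeR p below 0.05 were Mitf, Deptor and Tfeb. Tfec, another gene of the TFEB family, had 2.03 ± 2.80 CPM in control and 13.4 ± 6.27 CPM in CPN (edgeR adjusted p = 0.0622, and 0.00419 without control 3). Prkaa1, a catalytic subunit of AMPK, had 29.96 ± 5.23 and 48.6 ± 3.85 CPM (edgeR adjusted p = 0.0735).

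Of 18 genes for fusion of autophagosomes with lysosomes, 2 rose and 2 fell, with a median log2 fold change of 0.15, where 7.62% of all genes tested were higher and 6.39% lower. Plekhm1, a fusion adaptor whose loss causes osteopetrosis, fell from 108 ± 24.7 to 53.3 ± 17.9 CPM, with an edgeR adjusted p of 0.0196. Vamp8, the lysosomal SNARE of this step, fell from 111 ± 13.3 to 66.0 ± 5.52 CPM, while its partner SNARE Snap29 rose from 29.8 ± 5.89 to 57.3 ± 11.2 CPM; their edgeR adjusted p were 0.0210 and 0.0252. Epg5, a tether of the same step, rose from 16.6 ± 4.65 to 41.2 ± 14.2 CPM, with an edgeR adjusted p of 0.0176. Each of these calls was lost in some fits with a single library left out. Plekhm1 was lost without control 3, CPN 2 or CPN 3, Vamp8 without control 3, CPN 1 or CPN 2, Snap29 without control 1, control 3, CPN 2 or CPN 3, and Epg5 without control 1, control 3 or CPN 1, with edgeR adjusted p up to 0.108, 0.0894, 0.106 and 0.111. A lost call was not always a smaller difference. Without control 3 the log2 fold changes of Plekhm1, Vamp8 and Snap29 were -1.07, -0.80 and 1.02, against -1.02, -0.74 and 0.94 with all libraries. Calls over all genes also went from 1554 to 884 in that fit. The counts of the list were 4 higher without control 2, 0 higher without control 1 or control 3, and 0 lower without control 3 or CPN 2.

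Further receptors for selective autophagy gave 3 higher and 1 lower of 17 tested, with a median log2 fold change of 0.05, against backgrounds of 7.62% higher and 6.39% lower. Tex264, a receptor for the endoplasmic reticulum, rose from 40.7 ± 13.2 to 118 ± 3.58 CPM, 2.91-fold, at an edgeR adjusted p of 0.000895. Rtn3, which also serves that compartment, rose from 154 ± 15.8 to 252 ± 37.3 CPM, with an edgeR adjusted p of 0.0170, a call lost without control 3 (0.0951) or CPN 2 (0.0848). Wdfy3, the aggregate-binding protein ALFY that works with p62, rose from 70.2 ± 5.89 to 132 ± 9.46 CPM, with an edgeR adjusted p of 0.00495. Ncoa4, the receptor that carries ferritin to lysosomes, fell from 64.0 ± 3.67 to 24.5 ± 4.08 CPM, 2.61-fold, at an edgeR adjusted p of 0.00150. The calls of Tex264, Wdfy3 and Ncoa4 were kept with any single library left out.

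Other core and accessory genes gave 1 higher and none lower of 15 tested in edgeR (7.62% and 6.39% of all genes), with a median log2 fold change of 0.12, and 0 were lower at an unadjusted p below 0.05 or by DESeq2. Irgm1, an interferon-induced GTPase, had 3.26 ± 2.75 CPM in control and 14.8 ± 5.91 CPM in CPN (edgeR adjusted p = 0.0378), a call kept without control 3 and lost without any other single library (adjusted p up to 0.169). Zfyve1, which marks the membrane where autophagosomes arise, had 0.991 ± 1.09 and 6.62 ± 3.18 CPM (edgeR adjusted p = 0.147, and 0.0417 without control 2). Wdr45b and Rab33b had log2 fold changes of 0.39 ± 0.22 and 0.61 ± 0.39 and did not pass.

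**Figure D5:**
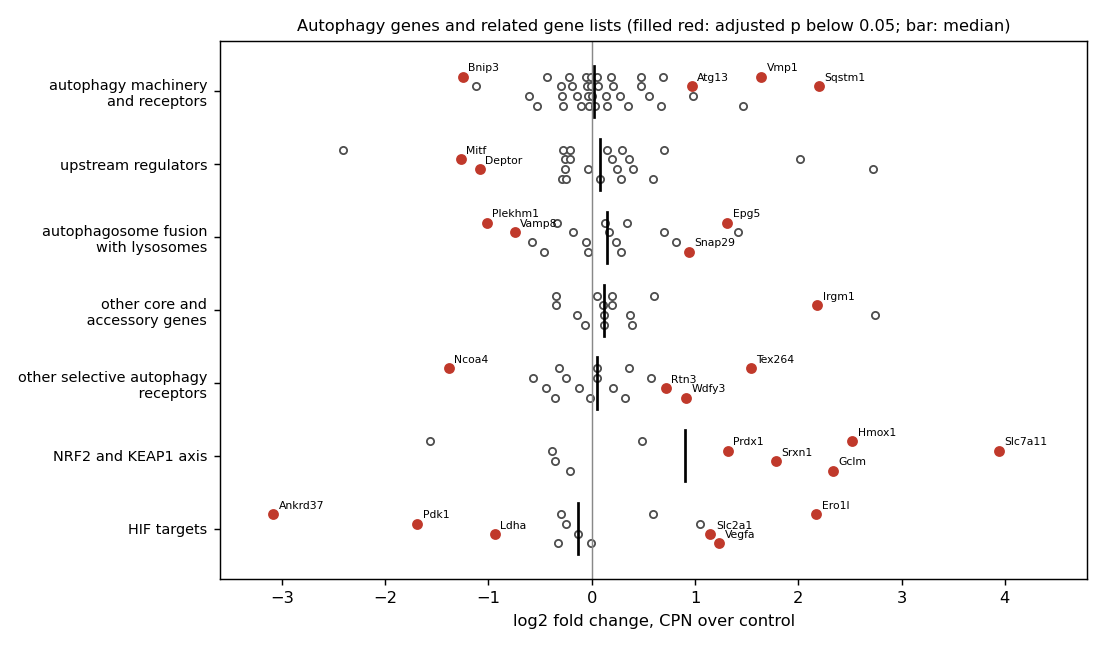
Log2 fold change of every tested gene of the 38 autophagy genes and of 6 related lists (points), with filled red for an edgeR adjusted p below 0.05 and a bar at each list's median. The medians of the 38 genes and of the 4 autophagy lists lie between 0.02 and 0.15, with calls on both sides of 0 in the fusion and receptor lists.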

How the data were processed

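Total RNA of 3 control and 3 CPN samples came from a Trizol extraction and was sequenced from QuantSeq libraries, which read transcript 3′ ends, per the labels. The values the authors deposited are raw counts per gene symbol, 1 table per sample, and per the submitters' processing notes Bowtie2, bedtools and the build mm10 were used. The sources used here do not give versions, annotation, strand use or the handling of multiply aligned reads, so reads of overlapping genes or of near-identical copies may be shared. Tables held 23282 entries, 79 of which have a symbol found more than once and stayed separate.

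Counts were fitted in R 4.3.3 with edgeR 4.0.16 across all genes: TMM scaling, filterByExpr (minimum count 10, minimum total 15), the quasi-likelihood test of CPN against control and Benjamini-Hochberg adjustment over 11092 genes. The SE is the log2 fold change divided by the square root of F, and 95% intervals use the fit's t quantile. The fit was tested on simulated data. Alternatives were DESeq2 1.42.0, limma-voom (limma 3.58.1), other scalings and filters, the replicate block, removal of Rn45s and libraries left out. Positions came from GENCODE M21, and 31 of 38 genes had RefSeq promoters.

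The genes and lists were chosen with earlier results of these data known. All called genes, all genes with non-overlapping groups and up to 4 genes with the smallest p per related list were named. A promoter was to be shown for the smallest p in each direction (Vmp1, Bnip3), and those of Sqstm1 and Atg13 were added after values were seen.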

Additional observations from a re-analysis of the deposited data

How the results depend on the processing

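Sqstm1 and Vmp1 passed under all 15 alternatives, Bnip3 under all except the fit without both control 3 and CPN 1, and Atg13 under all except that fit and those without control 1, control 3, CPN 1 or CPN 2. No called gene changed direction, and 16 genes that did not pass changed sign under at least 1 alternative. The 38 genes gave 5 higher under DESeq2. Under DESeq2-type size factors or the stricter low-count filter they gave 4 higher, with Gabarapl1 added (857 and 820 higher over all genes). They gave 2 lower, with Pik3c3 added, under DESeq2, library totals alone or no low-count filter. All genes gave 1052 higher and 903 lower under DESeq2, and 1046 and 874 with no low-count filter. Without both control 3 and CPN 1 they gave 0 lower, and all genes gave 273 higher and 173 lower. With 1 library left out at a time, the 38 genes gave 2 to 6 higher, 1 to 2 lower and a median log2 fold change of 0.000824 to 0.149, and all genes 525 to 1131 higher and 359 to 823 lower. Library totals alone moved the median of all genes from -0.0079 to -0.129 and that of the 38 genes to -0.098, with 690 genes higher and 914 lower against 845 and 709, or 43.0% against 54.4% of calls higher.

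Same-numbered control and CPN libraries did not deviate together (correlations of -0.051, 0.020 and 0.028). With so few libraries this cannot show whether they were handled as pairs, which the labels do not state. With the replicate block, 1326 genes passed, the calls among the 38 genes were the same 4, and 1 upstream regulator was higher. That count of 1 also came from DESeq2, limma-voom, no low-count filter and the fit without both control 3 and CPN 1, and it was 0 to 1 with single libraries left out. Lower upstream regulators numbered 1 without both libraries and 1 to 2 without single ones. Fusion genes gave 4 higher with no low-count filter, 4 lower with library totals alone, 0 higher and 1 lower without both libraries, and 0 to 4 higher and 0 to 3 lower without single ones. Accessory genes gave 0 higher with library totals alone, 2 with DESeq2 and 0 to 1 without single libraries. Further receptors gave 1 higher without both libraries and 2 lower with library totals alone or DESeq2. HIF targets gave 4 higher with DESeq2, limma-voom, no low-count filter or without control 2, and 0 lower without both libraries. The causes of these changes were not tested. An alternative on log-transformed normalized values was not run, since the tables hold counts. Low counts limit Optn, Atg4a, Atg4c and Wipi1, whose standard errors exceeded 0.7.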

Other observations

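Beside p62, which holds the NRF2 inhibitor KEAP1, 5 of 10 tested genes of the NRF2 axis rose in CPN and none fell (0 lower at an unadjusted p below 0.05 in edgeR, 0 by DESeq2), with a median log2 fold change of 0.90, where 7.62% of all genes tested were higher and 6.39% lower. This list was chosen with earlier results of these data known, so its count is no independent support. Slc7a11, the cystine transporter gene, went from 13.3, 55.6 and 12.5 CPM in control 1 to 3 to between 380.0 and 454 CPM in CPN, and Hmox1, the gene of heme oxygenase 1, from 13.7, 38.8 and 16.6 CPM to between 106 and 171 CPM (edgeR adjusted p = 0.000146 and 0.000503). In Slc7a11, Hmox1 and Srxn1, as in Sqstm1, control 2 was the highest control library, while in Gclm and Prdx1 it was the lowest. Gclm and Prdx1 also rose, 5.04-fold and 2.49-fold, as did Srxn1, named after its value was seen. Osgin1 was lower without passing, at 6.11 ± 0.917 CPM in control and 2.05 ± 1.46 CPM in CPN, with no overlap (edgeR adjusted p = 0.256). Txnrd1 was higher without passing, at 181 ± 14.7 CPM in control and 254 ± 45.9 CPM in CPN, with no overlap (edgeR adjusted p = 0.101). Gclc, with a log2 fold change of -0.21 and overlapping groups, did not pass, and Nqo1, with 19 counts in all, was too low to test. The gene of NRF2 itself, Nfe2l2, did not pass, at 156 ± 23.6 CPM in control and 119 ± 19.0 CPM in CPN, and neither did Keap1, at 92.7 ± 17.8 and 72.2 ± 9.46 CPM.

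Textbook HIF targets, a group to which Bnip3 also belongs, moved both ways, with 3 of 13 tested genes higher and 3 lower, against 7.62% and 6.39% of all genes tested. This list too was chosen with earlier results of these data known, so its counts are no independent support. Pdk1 and Ldha, genes that turn glucose carbon away from mitochondria, fell from 123 ± 41.9 to 37.97 ± 7.07 CPM and from 858 ± 185 to 447 ± 29.5 CPM (edgeR adjusted p = 0.00125 and 0.00358). Ankrd37, named after its value was seen, fell 8.49-fold, a call lost without control 3 (edgeR adjusted p = 0.0624). Ero1l, an oxidase of the endoplasmic reticulum, and Vegfa, the vascular growth factor gene, rose 4.51-fold and 2.35-fold (edgeR adjusted p = 7.6e-05 and 0.00172), and the glucose transporter gene Slc2a1, also named afterwards, rose 2.22-fold. Ndrg1, Pgk1 and Kdm3a, named afterwards as well, did not pass but had groups that did not overlap. Ndrg1 was 2.07-fold higher (edgeR adjusted p = 0.0883, and 0.000291 without control 2), while Pgk1 and Kdm3a were lower (0.258 and 0.542). The gene of HIF1 alpha, Hif1a, did not pass, at 89.0 ± 35.1 CPM in control and 80.9 ± 15.4 CPM in CPN.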
